A study of Mus musculus with 4 samples.

Results

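The chamber identity genes described here are *Nppa*, *Nppb*, *Irx4*, *Hey2*, *Hey1*, *Nr2f1* and *Nr2f2*. They were taken by symbol from the feature lists of 4 single-cell RNA-sequencing (scRNA-seq) libraries, and all 7 were found among the 32286 features of days 4 to 6 and the 32287 of day 11. Gastruloids are aggregates of mouse embryonic stem cells that self-organise into embryo-like tissues. Here they were grown from the wild-type line Zx1 in serum-free N2B27 medium, treated with Chiron, a Wnt agonist, from day 2 to day 3 and given bFGF, VEGF and ascorbic acid from day 4 to day 7. Cells were collected on days 4, 5, 6 and 11, with at least 8 gastruloids pooled into the 1 library of each day. All libraries thus share the line and the Wnt treatment, no untreated or mutant group was sequenced, and day 11 is also the day with the longest culture. The question for these genes was where, and with which of each other, they were detected as cardiomyocytes appeared. Cells with at least 30 unique molecular identifiers (UMIs, counted molecules) of *Myl7* per 10000 are called Myl7-high below, and the remaining cells of the same day are called other cells. *Myl7* encodes the atrial myosin regulatory light chain, which all early cardiomyocytes make.

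In the forming heart, atrial and ventricular muscle acquire separate gene programmes, and a small set of transcription factors keeps each one in its chamber. *Irx4*, an Iroquois homeobox factor, and *Hey2*, a Notch-responsive basic helix-loop-helix repressor, act in ventricular muscle. *Hey1*, the close relative of *Hey2*, is found in atrial muscle and in arterial endothelium, while the orphan nuclear receptors *Nr2f1* and *Nr2f2* (COUP-TFI and COUP-TFII) are found in atrial and sinus venosus muscle, where *Nr2f2* maintains atrial identity. *Nr2f2* is also a factor of veins and mesenchyme, and *Nr2f1* of the nervous system. *Nppa* and *Nppb* encode the atrial and B-type natriuretic peptides, hormones of working chamber muscle that in the embryo are made by atria and by trabecular ventricular muscle.

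On the mouse assembly GRCm38 (GENCODE vM21), the 2 peptide genes are neighbours on the plus strand of chromosome 4, *Nppb* (ENSMUSG00000029019) at chr4:147985788-147987205 and *Nppa* (ENSMUSG00000041616) at chr4:148000722-148002079, with 13516 bases and 0 annotated genes between them. *Irx4* (ENSMUSG00000021604) is at chr13:73260479-73269608 on the plus strand and *Nr2f1* (ENSMUSG00000069171) at chr13:78188973-78199757 on the minus strand. *Hey2* (ENSMUSG00000019789) is at chr10:30832359-30842801, *Hey1* (ENSMUSG00000040289) at chr3:8663359-8667256 and *Nr2f2* (ENSMUSG00000030551) at chr7:70351944-70366735, all on the minus strand. An annotated gene lies on the opposite strand over part of *Nppa* (Gm13054), *Nr2f1* (A830082K12Rik) and *Nr2f2* (B130024G19Rik).

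The sequences just before the starts of *Nppa* and *Nppb* are shown because these peptide genes are classical targets of cardiac GATA, Nkx2-5 and T-box factors. At day 11 each had under 100 UMIs in all cells below the *Myl7* limit, as did *Irx4*. The sequences come from RefSeq on GRCm38.p6, are on the plus strand, and run 5′ to 3′. Capitals mark matches to short letter strings. TATAAA is the core promoter string bound by the TATA-binding protein. GGTGTG is a string of the T-box factors, which here was matched on the opposite strand and so reads CACACC as printed. TNAAGTG is a string of the factor Nkx2-5. The strings of the zinc finger factors of the GATA family were TGATAA as well as, in *Nppb* alone, AGATAA.
Nppa, chr4:148000472-148000721, the 250 bases before its RefSeq start: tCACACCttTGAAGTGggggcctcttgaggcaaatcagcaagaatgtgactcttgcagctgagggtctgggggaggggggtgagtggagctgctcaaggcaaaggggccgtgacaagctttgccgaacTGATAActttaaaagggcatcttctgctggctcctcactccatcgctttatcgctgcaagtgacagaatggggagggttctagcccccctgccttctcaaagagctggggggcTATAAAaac
Nppb, chr4:147985796-147985825, from 104 to 75 bases before its RefSeq start: gaatgcagcTGATAAatcagAGATAAcccc
The *Nppb* stretch lies inside the first exon of the longer GENCODE model, whose start is upstream of that of RefSeq.

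Windows of 250 bases upstream of the start were searched on both strands for 6 of the 7 genes, with *Hey1* not matched, against all 32851 windows of the same table. TATAAA was found in *Nppa* and *Nppb* and in 12.4% of all windows. GGTGTG was found in *Nppa*, *Nppb* and *Hey2* and in 16.3% of all windows, and TNAAGTG in *Nppa* alone of the 6 genes and in 10.1% of all windows. TGATAA was found in *Nppa* and *Nppb* (7.94% of all windows) and AGATAA in *Nppb* (9.99%). An E-box (CACGTG, 6.02% of all windows) and a nuclear receptor half-site (AGGTCA, 14.0%) were in 0 of the 7 windows of these genes, *Nr2f1* having 2. The matches describe letters only.

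The libraries held 7324, 7794, 6628 and 9584 cells at days 4, 5, 6 and 11, of which 6555, 6457, 5254 and 7854 were kept, with a median of 24186, 28152, 24709 and 11436 UMIs per kept cell. Between 5 and 23 cell barcodes were shared by any pair of libraries. No cell passed the *Myl7* limit at days 4 and 5, where the highest values were 16.5 and 9.90 UMIs per 10000. At day 6, 426 cells (8.11%) passed it, and at day 11, 1284 cells (16.3%). All 10 fixed cardiomyocyte markers (among them *Tnnt2*, *Actc1* and *Nkx2-5*) were at least 2 times higher in Myl7-high than in other cells at both days, and their summed level was 19026 against 372 CPM (counts per 1000000 UMIs) at day 6 and 30034 against 943 CPM at day 11. The limit was not at a gap, since 72 and 51 cells lay between 20 and 30 and 68 and 75 cells between 30 and 45 per 10000 at days 6 and 11. Levels below are the summed UMIs of a gene in the cells named, as CPM of all their UMIs. Because each day was 1 library, no test across samples could be made, intervals in parentheses are 95% intervals that cover counting error only, and a difference between days cannot be told apart from a difference between libraries. Genes are called higher or lower where the ratio was at least 2 or at most its inverse and the cells compared held at least 100 UMIs together.

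Before any cell passed the limit, the peptide genes and *Irx4* were close to absent. *Nppa* had 4 UMIs at day 4 and 35 at day 5, in 17 of 6457 cells, and *Nppb* had 1 and 37 UMIs. *Irx4* was at 0.409 and 0.367 CPM. *Nr2f1* was at 2.55 CPM at day 4 and 2.56 CPM at day 5, so it did not move between these libraries. *Nr2f2* was 3.68 times higher at day 5 (16.4 CPM) than at day 4 (4.45 CPM), while *Hey1* was at 12.3 CPM at day 4 and 4.12 CPM at day 5. From day 5 to day 6, over all cells, *Nr2f1* was 42.3 times higher (38.7 to 46.3), *Hey1* 8.54 times (7.93 to 9.20), *Nr2f2* 8.49 times (8.18 to 8.81), *Irx4* 6.25 times (4.84 to 8.16) and *Hey2* 2.16 times (1.95 to 2.39). The median ratio of day 6 to day 5 over all genes compared was 1.12. How many of all genes were past the limit of 2 between these days was not counted. *Nppb* had 7 UMIs in all 5254 cells of day 6.

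**Figure D1:**
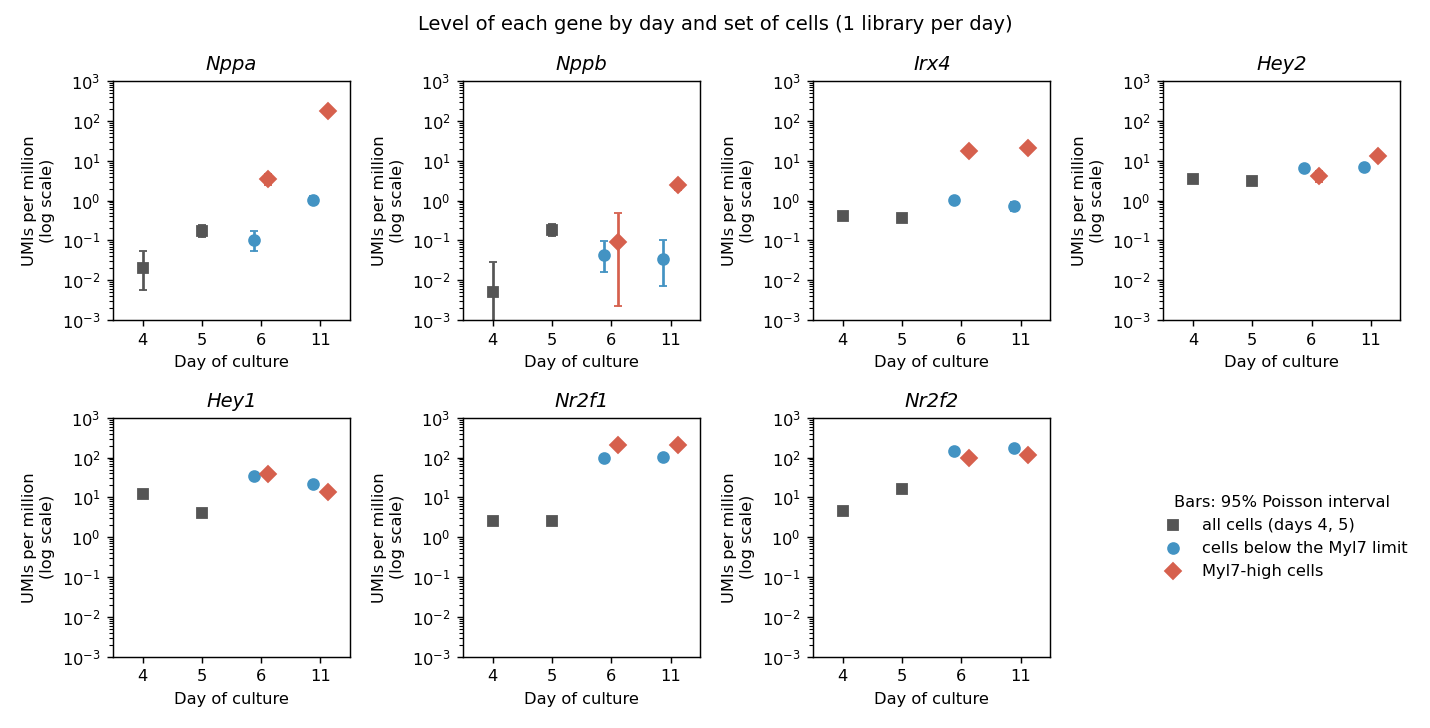
Level of each of the 7 genes in CPM (log axis) by day of culture, over all kept cells at days 4 and 5 and over Myl7-high and other cells at days 6 and 11, with bars for the 95% Poisson interval of the summed count. *Nppa* goes from 3.48 to 175.5 CPM in Myl7-high cells between days 6 and 11, while *Nr2f1* stays near 206 and 209 CPM.

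At day 6 the Myl7-high cells as a whole had *Irx4* and *Nr2f1* above the level of other cells, and few UMIs of the peptide genes. *Irx4* was at 17.9 CPM (15.6 to 20.6) in Myl7-high and 1.03 CPM in other cells, a ratio of 17.4 (14.0 to 21.7). *Nr2f1* was at 206 CPM (197 to 214) against 100.2 CPM, a ratio of 2.05 (1.96 to 2.14), just past the limit of 2, and 5 of the other settings tried put it below that limit, cardiomyocyte-like clusters in place of the *Myl7* limit among them. In the cells with 200 or more *Myl7* UMIs per 10000 it was at 81.5 CPM, and 24.4% of the Myl7-high cells of day 6 lay in clusters without a cell type name. These were the 2 of 5 comparable members called higher, where 7.68% of all 13455 genes were called higher and 15.5% lower, and 0 of 5 were called lower. *Hey1* was almost level between the cell sets, at 39.8 CPM (36.2 to 43.7) and 34.8 CPM. *Hey2* was at 4.11 CPM (3.01 to 5.48) in Myl7-high and 6.72 CPM in other cells, a ratio of 0.611 (0.444 to 0.821), and *Nr2f2* at 95.1 CPM against 142.5 CPM, a ratio of 0.667 (0.627 to 0.710). *Hey2*, the ventricular repressor, was therefore not enriched in the first cardiomyocytes.

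*Nppa* had 39 UMIs in 14 of the 426 Myl7-high cells of day 6 and 14 UMIs in 10 of the 4828 other cells, too few for a call, with 89.7% of the 39 UMIs in 10 cells. *Nppb* had 1 UMI in Myl7-high and 6 in other cells, which is below what a comparison needs.

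At day 11 the natriuretic peptide gene *Nppa* separated the cardiomyocytes from all other cells more widely than any other comparable member. *Nppa* was at 175.5 CPM (170.5 to 180.6) in Myl7-high cells and 1.05 CPM in other cells, a ratio of 167 (136 to 208). *Irx4* was at 20.7 CPM (18.97 to 22.5) against 0.718 CPM, a ratio of 28.8 (22.1 to 37.9), and *Nr2f1* at 209 CPM (204 to 215) against 102.5 CPM, a ratio of 2.04 (1.98 to 2.11) whose interval reached below 2. These 3 of 6 comparable members were called higher and 0 lower, where 10.8% of all 13799 genes were called higher and 25.9% lower. In 4 of the other settings *Nr2f1* lost its call, and in 2 of them *Hey2* gained one. *Hey2* was at 12.9 CPM against 7.05 CPM (ratio 1.83, 1.60 to 2.09). This value was carried by cells with under 100 *Myl7* UMIs per 10000, since the 469 and 425 cells of the 2 highest *Myl7* bins were at 6.37 and 2.33 CPM. *Hey1* was at 13.7 CPM against 21.9 CPM (0.625, 0.557 to 0.700). *Nr2f2* was at 118.5 CPM (114 to 123) in Myl7-high cells against 170.7 CPM, a ratio (0.668 to 0.722) past neither limit, as at day 6. The median ratio over all genes compared was 0.906 at day 6 and 0.778 at day 11, below 1 at both days.

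*Nppb* had 64 UMIs in 36 Myl7-high cells at day 11, never more than 6 in a cell, and 3 UMIs among the 6570 other cells. With 67 UMIs in all it was under the minimum for a call. Its level was 2.41 CPM (1.86 to 3.08) in Myl7-high cells, a ratio of 70.4 with an interval from 23.0 to 350.5.

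Many of the *Nppa* molecules were in a few cells. At day 11 it was found in 194 of the 1284 Myl7-high cells (15.1%, 13.2 to 17.2), with a median of 3 UMIs in these cells and 271 UMIs in the highest. The 10 highest cells held 43.6% of its UMIs, and without them the level was 100 CPM. *Nr2f1*, by comparison, was found in 71.6% of the same cells, *Nr2f2* in 59.0%, *Hey1* in 20.02%, *Irx4* in 19.6% and *Hey2* in 13.3%.

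Shares of cells depend on depth, which differed between the cell sets of day 11 (median 17566 UMIs in Myl7-high and 10805 in other cells) but little at day 6 (23500.5 and 24872). After each cell was thinned to 5000 UMIs, 9.16% of Myl7-high cells had *Nppa* at day 11 and 1.42% at day 6, against 0.189% and 0.0415% of other cells. In neural ectoderm-like cells of day 11, a type that should lack *Nppa*, the thinned share was 0.388% (4 of 1030 cells, median 10675 UMIs before thinning). In skeletal myoblast-like cells it was 0 of 280. Before thinning, all 289 cells of this type together also had 0 UMIs of *Nppa*, which allows a level of up to 0.582 CPM. The day 11 share of 0.189% in other cells lay between the shares of these 2 types. Both types are themselves part of the other cells, so this cannot show whether other cells expressed *Nppa*, and nothing is read from the share. Single other cells had more, up to 43 UMIs. *Irx4* had thinned shares of 6.16% and 8.48% in Myl7-high cells at days 6 and 11 against 0.581% and 0.220% in other cells. For *Hey2* the shares were 1.90% and 5.00% against 3.47% and 3.12%, and for *Nr2f1* they were 49.8% and 52.3% against 32.0% and 31.9%. The shares followed the direction of the CPM for these genes at both days.

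For *Hey1* they did not. At day 11 it was found in 20.02% of Myl7-high and 18.3% of other cells as sequenced, but in 5.17% and 9.34% after thinning, the order that its CPM also had. At day 6 its share was slightly lower in Myl7-high cells, both as sequenced (38.0% against 40.9%) and after thinning (13.3% against 13.6%), while its CPM was slightly higher, so no order is read from it there.

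Between days 6 and 11, *Nppa* and *Hey2* were higher over the Myl7-high cells as a whole and *Hey1* lower, while *Irx4* and the COUP-TF genes were near the same level. *Nppa* was 50.4 times higher (36.8 to 71.0) and *Hey2* 3.14 times (2.30 to 4.36), and *Hey1* was at 0.343 of its day 6 level (0.298 to 0.395). The *Hey2* difference lay mainly in cells with under 100 *Myl7* UMIs per 10000. It was at 9.67 CPM at day 6 and 61.7 CPM at day 11 at 30 to 45, and at 3.34 and 28.3 CPM at 45 to 100. At 100 to 200 it was at 3.27 (1.83 to 5.39) and 6.37 CPM (4.88 to 8.17), and at 200 or more at 1.93 (0.397 to 5.63) and 2.33 CPM (1.46 to 3.53). So 2 of 6 comparable members were called higher and 1 lower, where 9.93% of 10938 genes were called higher and 8.37% lower. *Nppb*, with 64 UMIs at day 11 and 1 at day 6, had too few for a call. *Irx4* had a ratio of 1.15 (0.978 to 1.36), *Nr2f1* 1.02 (0.970 to 1.07) and *Nr2f2* 1.25 (1.16 to 1.34). These ratios pool opposite differences within *Myl7* bins. At 30 to 45, the day 6 and day 11 levels were 2.28 and 30.5 CPM for *Irx4*, 280 and 104 CPM for *Nr2f1* and 166 and 55.6 CPM for *Nr2f2*. At 200 or more they were 34.7 and 16.7 CPM, 81.5 and 272 CPM, and 27.0 and 132 CPM. In other cells *Nppa* was also called higher at day 11, with 92 UMIs against 14 and a ratio of 10.4 (5.89 to 19.8), but 43 of the 92 UMIs were in 1 cell and the 10 highest cells held 82.6% of them, leaving 0.183 CPM. The other ratios of day 11 to day 6 in these cells were 1.05 for *Hey2*, 0.628 for *Hey1*, 1.02 for *Nr2f1*, 1.20 for *Nr2f2* and 0.697 for *Irx4*. Over each set as a whole, the *Hey2* difference between days was thus seen in Myl7-high cells and not in other cells. The difference between this pair of ratios was not tested. Other cells just under the limit had more *Hey2* at day 11. It was at 6.79 CPM at day 6 and 43.8 CPM at day 11 at 10 to 20 *Myl7* UMIs per 10000. At 20 to 30 it was at 8.55 and 55.2 CPM, each bin with too few UMIs for a call.

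**Figure D2:**
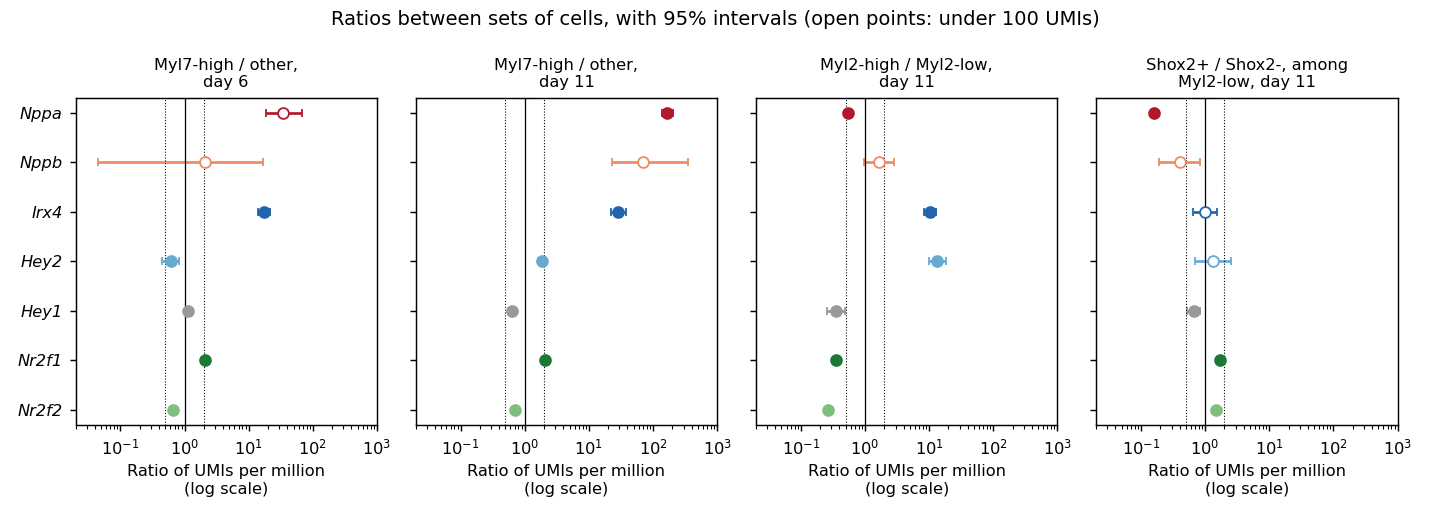
Ratio of levels (log axis) for each gene in 4 comparisons, Myl7-high to other cells at days 6 and 11, Myl2-high to Myl2-low and, among Myl2-low cells, *Shox2*-positive to *Shox2*-negative cells of day 11, with 95% intervals, dotted lines at 0.5 and 2 and open points for genes with under 100 UMIs. *Irx4* and *Hey2* lie at 10.4 and 13.3 in the *Myl2* panel and the COUP-TF genes below 0.5.

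The cardiomyocytes of day 11 were then split by *Myl2*, which encodes the ventricular myosin light chain. With a limit of 10 UMIs per 10000, 350 cells were Myl2-high (median 19007 UMIs) and 934 Myl2-low (median 17139), with 43 cells just below the limit (5 to 10) and 55 just above it (10 to 20). The 2 ventricular factors went with *Myl2*. *Irx4* was at 55.6 CPM in Myl2-high and 5.36 CPM in Myl2-low cells (ratio 10.4, 8.33 to 13.0), and *Hey2* at 36.1 and 2.71 CPM (13.3, 9.85 to 18.4). *Irx4* was detected in 23.8% of thinned Myl2-high and 2.59% of thinned Myl2-low cells.

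The atrial-side genes were on the other side of this split. *Nr2f1* was at 91.7 CPM in Myl2-high against 261 CPM in Myl2-low cells (0.351, 0.325 to 0.380), *Nr2f2* at 40.6 against 152.7 CPM (0.266, 0.237 to 0.299) and *Hey1* at 6.05 against 17 CPM (0.356, 0.258 to 0.483). In all, 2 of 6 comparable members were called higher in Myl2-high cells and 3 lower, where 1.06% of 10174 genes were called higher and 3.03% lower.

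*Nppa* was past neither limit in this split. It was at 111 CPM in Myl2-high and 204 CPM in Myl2-low cells, a ratio of 0.546, and it was found in 15.4% and 14.99% of these cells as sequenced and in 7.01% and 9.99% after thinning. The 10 highest cells held 84.9% of its UMIs in the Myl2-high and 50.4% in the Myl2-low set, and without them the levels were 17.5 and 102.5 CPM, further apart than with them. *Nppb* had 27 UMIs in Myl2-high and 37 in Myl2-low cells, a ratio of 1.67 with an interval from 0.975 to 2.81.

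At day 6 only 39 of the Myl7-high cells were Myl2-high, and *Irx4*, *Nr2f1*, *Nr2f2* and *Hey1* already lay on the sides they had at day 11. *Irx4* was at 72.1 CPM in these 39 cells and 10.9 CPM in the 387 Myl2-low cells. *Nr2f1* was at 68.2 and 223 CPM, *Nr2f2* at 17.1 and 105 CPM and *Hey1* at 5.42 and 44.3 CPM. *Hey2*, with 3 and 43 UMIs, was at 2.33 and 4.34 CPM, a ratio of 0.536 whose interval (0.106 to 1.67) covers both directions.

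Graded levels within the cardiomyocytes gave the same order as the split. Over 6 bins of *Myl2* in Myl7-high cells of day 11, from 0 to 50 or more per 10000, *Irx4* was at 1.97, 9.71, 19.6, 35.5, 47.8 and 66.3 CPM, higher in each bin than in the one before. *Hey2* was at 2.48, 1.91, 9.81, 19.1, 24.4 and 48.4 CPM, where the first and second bins did not differ beyond counting error. *Nr2f2* ran the opposite way, from 161 CPM in cells without *Myl2* to 19.8 CPM at 50 or more, and *Nr2f1* from 266 to 58.9 CPM. *Nppa* was at 175.0, 279.6, 103, 45.9, 180.1 and 84.1 CPM, but the 10 highest cells held between 70.6% and all of its UMIs in each bin. Without them the levels were 53.1, 69.3, 0, 0, 5.73 and 6.96 CPM, so its order along *Myl2* rests on few cells.

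**Figure D3:**
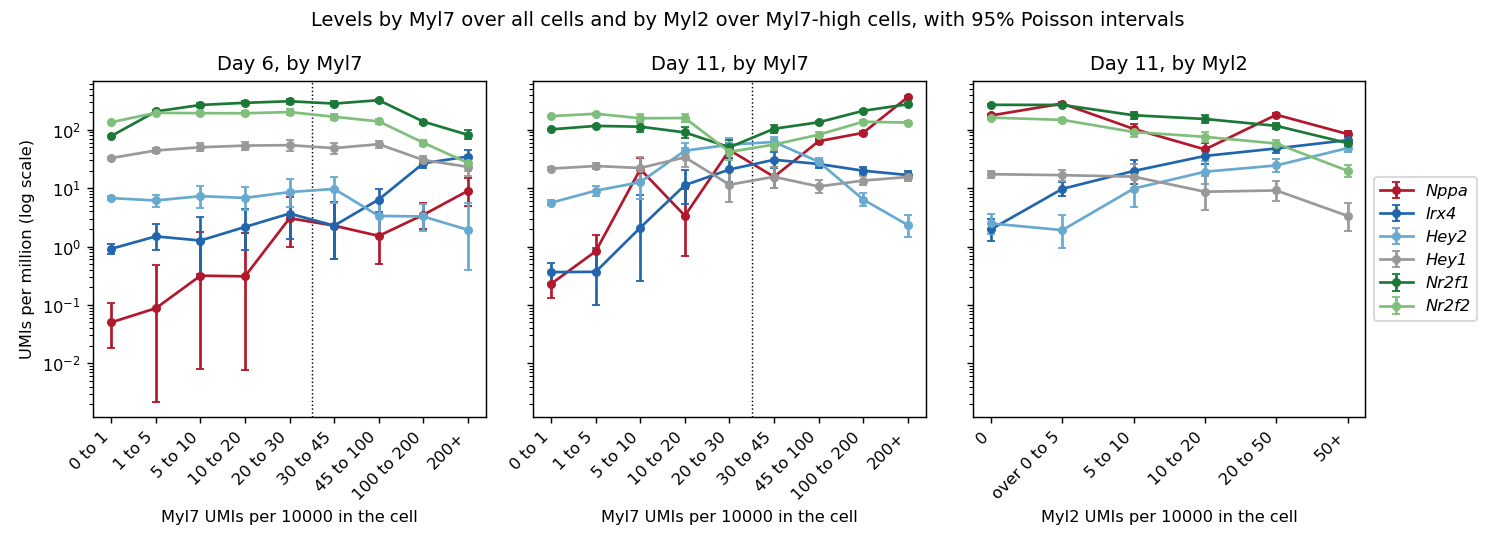
Levels in CPM (log axis) of 6 genes, *Nppb* left out for its low counts, over bins of *Myl7* in all cells at days 6 and 11 (the dotted line marks the limit of 30 per 10000) and over bins of *Myl2* in Myl7-high cells of day 11, with 95% Poisson intervals. *Hey2* peaks at 61.7 CPM in the bin just past the *Myl7* limit at day 11 and is at 2.33 CPM in the highest bin.

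The level of *Myl7* itself, which the limit cuts, also ordered these genes, and differently at the 2 days. At day 11, *Hey2* was at 43.8, 55.2 and 61.7 CPM in the bins from 10 to 45 *Myl7* UMIs per 10000 and then at 28.3, 6.37 and 2.33 CPM in the bins 45 to 100, 100 to 200 and 200 or more. *Irx4* was at 30.5 CPM just past the limit and 16.7 CPM in the highest bin. *Nr2f1* ran from 104 CPM just past the limit to 272 CPM in the highest bin, and *Nppa* from 15.6 CPM, all of it in 2 cells, to 360.5 CPM, or 168.9 CPM without the 10 highest cells. In short, the day 11 cells with most *Myl7* had most *Nppa* and *Nr2f1* and least *Hey2*.

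At day 6 the order of *Irx4* and the COUP-TF genes along *Myl7* was the opposite of that at day 11. *Irx4* was at 2.28 CPM just past the limit, 6.38 CPM at 45 to 100, 26.6 CPM at 100 to 200 and 34.7 CPM in the 55 cells with 200 or more. *Nr2f1* was highest in cells around the limit, with 307 CPM at 20 to 30 and 320 CPM at 45 to 100, and was at 137 and 81.5 CPM in the 2 highest bins. *Nr2f2* was at 166 CPM just past the limit and 27.0 CPM in the highest bin, and *Hey1* at 54.4 CPM at 20 to 30 and 23.1 CPM in the highest bin. The day 6 cells with most *Myl7* thus had most *Irx4* and least *Nr2f2*.

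*Shox2*, a homeobox factor of the sinus venosus and sinoatrial node, gave a second split. Of the Myl7-high cells of day 11 deep enough to thin, 584 had a *Shox2* UMI after thinning and 595 had none. As sequenced, 133 of these 595 *Shox2*-negative cells had a *Shox2* UMI, so the set was low in *Shox2* (34.5 CPM, against 678 CPM) and not free of it. *Nr2f1* was at 296 CPM in *Shox2*-positive and 126 CPM in *Shox2*-negative cells, *Nr2f2* at 167 and 72.6 CPM, *Irx4* at 12.9 and 28.6 CPM and *Hey2* at 3.78 and 22.03 CPM. *Shox2* was at 142.8 CPM in Myl2-high and 444.5 CPM in Myl2-low cells, although 24.6% of the Myl2-high cells had a *Shox2* UMI as sequenced, and the split was therefore repeated among Myl2-low cells alone.

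There, in 524 *Shox2*-positive and 327 *Shox2*-negative cells, *Nppa* was the member that differed most. It was at 67.4 CPM in *Shox2*-positive and 419 CPM in *Shox2*-negative cells (0.161, 0.148 to 0.174). *Nppa* was found in 5.92% and 16.5% of the thinned cells. The 10 highest cells held 82.4% and 61.1% of these UMIs, and the levels without them were 12.2 and 170.7 CPM. *Nr2f1* was at 313 and 184 CPM, *Nr2f2* at 177 and 118.0 CPM and *Hey1* at 14.3 and 21.5 CPM. *Irx4*, with 60 and 39 UMIs, was at 5.39 and 5.51 CPM, which did not differ beyond counting error. At day 6, with 105 *Shox2*-positive and 317 *Shox2*-negative cells, *Nr2f2* was at 241 and 47.2 CPM, *Nr2f1* at 415 and 136 CPM, *Hey1* at 71.0 and 29.6 CPM and *Irx4* at 6.13 and 21.8 CPM.

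Cells were also clustered with the 7 genes and *Myl7* left out of the genes used, although the clusters were led by genes that vary together with them, so levels by cluster are a description. Clusters carry a name ending in -like where fixed marker genes of 1 cell type led, and otherwise no name. Of the Myl7-high cells of day 11, 98.05% fell in cardiomyocyte-like clusters, against 75.6% at day 6. The 3 largest were cluster 5 (474 Myl7-high cells, led by *Acta2*, *Vsnl1*, *Pnmt* and *Shox2*), cluster 12 (327 cells, led by *Casq1*, *Sln*, *Myh6* and *Tesc*) and cluster 9 (327 cells, led by *Myl2*, *Myh7*, *Myl3* and *Pln*), with median depths of 17523, 19862 and 18146 UMIs.

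*Nppa* was at 472 CPM in cluster 12, 109 CPM in cluster 9 and 4.69 CPM in cluster 5, and was found in 25.2%, 5.06% and 1.72% of their thinned cells. Without the 10 highest cells of each cluster these levels were 252, 6.52 and 0.563 CPM, so the level in cluster 9 rested on those cells, which held 94.3% of its UMIs there. *Nppb* had 39, 24 and 0 UMIs in the same clusters, and the 0 allows up to 0.402 CPM in cluster 5. Its ratio of cluster 12 to cluster 9 was 1.49 (0.875 to 2.59), which counting error could give without a difference. Both peptide genes were thus lowest in the *Shox2*-led cluster.

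*Irx4* was at 48.9 CPM in cluster 9, 15.98 CPM in cluster 12 and 3.06 CPM in cluster 5. The *Casq1*-led cluster was 5.23 times above the *Shox2*-led cluster (3.45 to 8.19). It held 126 *Irx4* UMIs, more than the 99 of all Myl2-low cells, so part of them were in Myl2-high cells. By cluster, *Irx4* thus took 3 separate levels. *Hey2* took 2, at 35.4 CPM in cluster 9 against 3.17 and 2.73 CPM in clusters 12 and 5, whose ratio was 1.16 (0.641 to 2.11). *Hey1* was at 4.84, 19.8 and 15.2 CPM in clusters 9, 12 and 5. *Nr2f1* was at 60.7, 255 and 299 CPM and *Nr2f2* at 19.4, 133 and 185 CPM, so the COUP-TF genes were lowest in the *Myl2*-led and highest in the *Shox2*-led cluster.

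**Figure D4:**
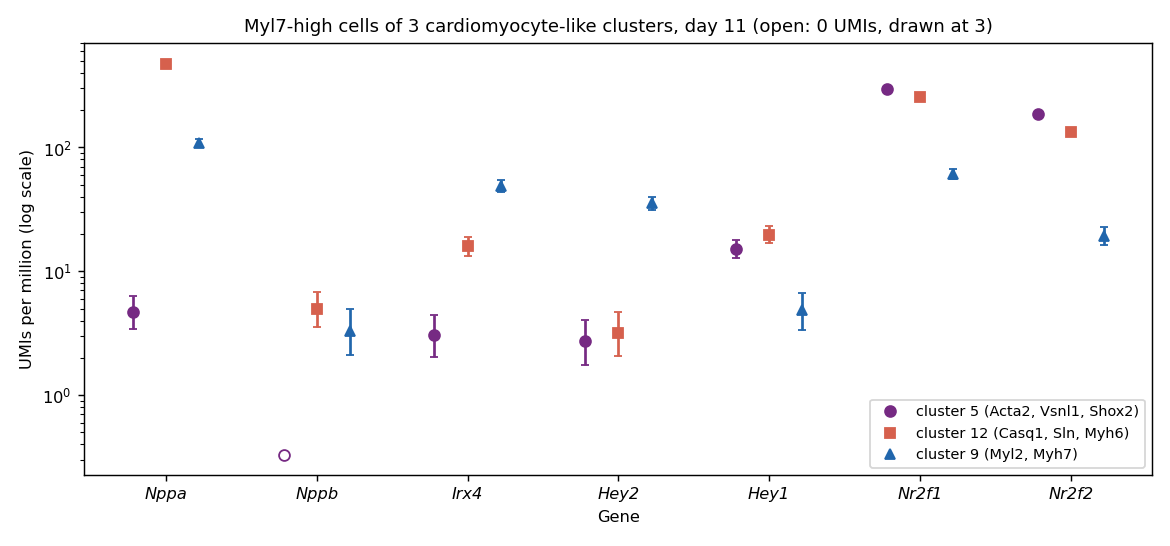
Levels in CPM (log axis) of the 7 genes in Myl7-high cells of clusters 5, 12 and 9 at day 11, with 95% Poisson intervals, the open point standing for 0 UMIs drawn at a count of 3. *Nppa* is highest in cluster 12, *Irx4* and *Hey2* in cluster 9, and *Nr2f1* and *Nr2f2* in cluster 5.

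At day 6 there was 1 cardiomyocyte-like cluster with 322 Myl7-high cells, in which *Irx4* was at 22.1 CPM and *Nr2f1* at 173 CPM. Another 52 Myl7-high cells lay in a cluster without a name led by *Sfrp5*, *Alcam* and *Shox2*, and in them *Nr2f1* was at 438 CPM, *Nr2f2* at 242 CPM and *Hey1* at 93.2 CPM, with 0 UMIs of *Nppa*.

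Co-detection was counted in cells thinned to 5000 UMIs, against the product of the 2 genes' shares, for all 21 pairs, and a pair was compared where that product was at least 5 cells. A pair was called at 1.5 times the product or more, or at its inverse or less. At day 11, 16 pairs could be compared in 1179 Myl7-high cells, of which 1 was found together more often and 6 less often. With thinning to 3000 or a *Myl7* limit of 60, 0 pairs were called together more often, and those called less often became 2 with that limit or without thinning and 0 where at least 2 UMIs were required. The pair found together was *Irx4* and *Hey2*, in 14 cells against a product of 5.00 (2.80, 1.53 to 4.69). Within the 328 thinned Myl2-high cells the same 14 cells stood against 11.4, a ratio of 1.23 (0.671 to 2.06), so inside that set their joint detection did not differ from the product beyond counting error.

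The 6 pairs found less often each joined a gene higher in Myl2-high cells with *Nppa*, *Hey1* or a COUP-TF gene. *Hey2* and *Nr2f2* were together in 6 cells against 21.6 (0.278, 0.102 to 0.604), *Hey2* and *Nr2f1* in 14 against 30.9 (0.453, 0.248 to 0.761), *Irx4* and *Nr2f1* in 33 against 52.3 (0.631, 0.434 to 0.886) and *Irx4* and *Nr2f2* in 24 against 36.6 (0.655, 0.420 to 0.975). *Nppa* with *Hey2* (1 cell against 5.41) and *Irx4* with *Hey1* (2 cells against 5.17) had intervals that reached above 1, so these 2 calls rest on very few cells. Whether any of these pairs was exclusive was not tested, since no background share was taken for *Irx4*, *Hey2*, *Hey1* or the COUP-TF genes.

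*Nppa* was found with *Irx4* in 11 cells against 9.16, with *Nr2f1* in 63 against 56.5, with *Nr2f2* in 45 against 39.6 and with *Hey1* in 7 against 5.59, all near the product. Its joint detection with *Nppb*, in 8 cells against 1.28, was below the minimum for a comparison, but 57.1% of the 14 cells with *Nppb* had *Nppa*, against 9.16% of all 1179. *Nr2f1* and *Nr2f2* were together in 289 cells against 226 (1.28, 1.14 to 1.44), below the limit of 1.5.

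At day 6, 5 pairs could be compared in 422 cells. *Nr2f1* and *Nr2f2* were found together in 91 cells against 57.7 (1.58, 1.27 to 1.94) and *Hey1* and *Nr2f2* in 29 against 15.4 (1.88, 1.26 to 2.71). Without thinning neither call was made, with ratios of 1.12 and 1.499, and in 5 other settings 1 pair in place of 2 was called together more often. *Irx4* and *Nr2f2* were together in 1 cell against 7.15 (0.140, 0.00354 to 0.780). *Hey1* with *Nr2f1* (34 against 27.9) and *Irx4* with *Nr2f1* (10 against 12.9) were past neither limit. No cell had both *Irx4* and *Hey1*, where the product was 3.45 cells.

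**Figure D5:**
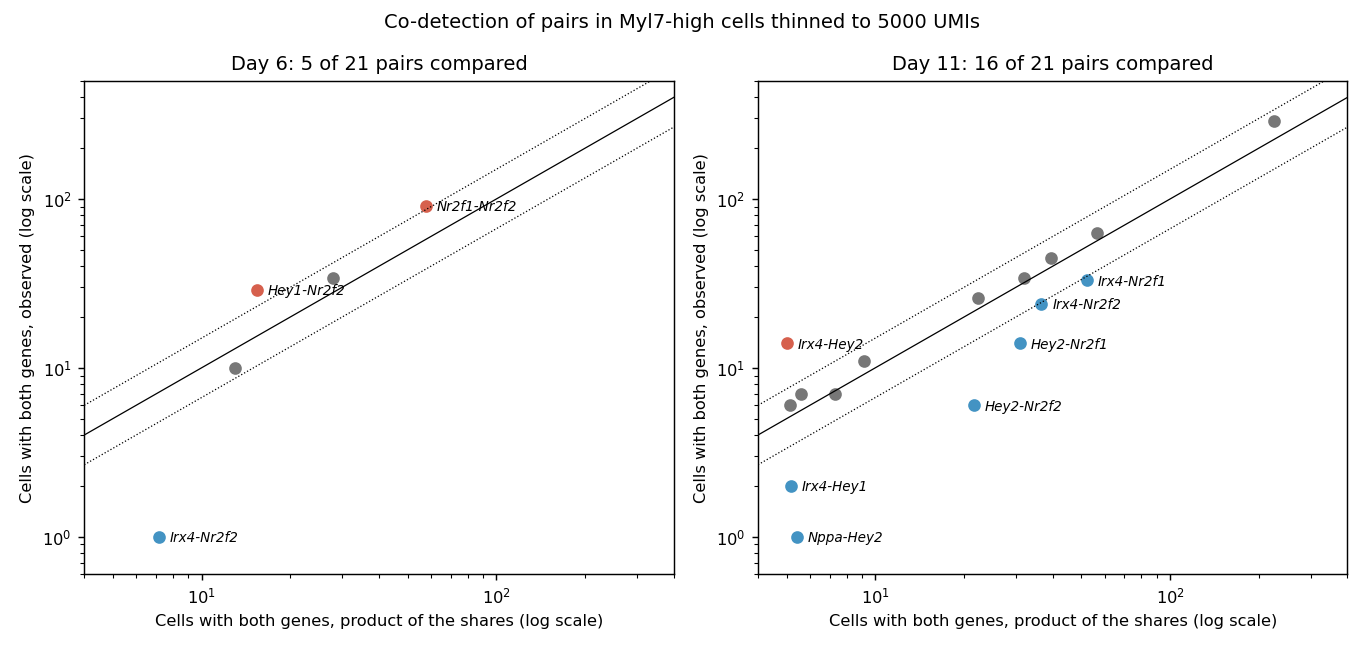
Cells of the Myl7-high set in which both genes of a pair were found after thinning to 5000 UMIs (vertical axis) against the number given by the product of their shares (horizontal axis), at days 6 and 11, both on log axes, with pairs past 1.5 times or its inverse labelled. At day 11 the pair *Irx4* and *Hey2* (14 against 5.00) lies above the line of equality, and *Hey2* with *Nr2f2* (6 against 21.6) below it.

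Each cell was also placed by whether it held either ventricular factor and either COUP-TF gene. At day 11, 88 thinned Myl7-high cells (7.46%) had *Irx4* or *Hey2* without *Nr2f1* or *Nr2f2*, 703 (59.6%) had a COUP-TF gene alone, 57 had both kinds against a product of 93.5, and 331 (28.1%) had neither. At day 6 the counts were 21, 222, 13 against 18.9, and 166. In other cells the 2 kinds met at or slightly above the product, in 138 cells against 127.3 at day 11 and 134 against 112.1 at day 6. Most thinned cardiomyocytes of day 11 held 1 (40.1%) or 2 (29.1%) of the 7 genes, 24.5% held none, and 10 cells (0.848%) held 4.

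*Myl2* and *Shox2* placed the same genes apart. At day 11, *Irx4* and *Myl2* were found together in 90 cells against 40.4 and *Hey2* and *Myl2* in 51 against 23.8. *Nr2f2* and *Myl2* met in 96 cells against 174 and *Nr2f1* and *Myl2* in 164 against 249. *Nr2f2* and *Shox2* were together in 295 cells against 214, and *Hey2* and *Shox2* in 11 against 29.2. At day 6, *Irx4* and *Myl2* were together in 13 cells against 5.30, and *Nr2f2* and *Shox2* in 63 against 28.9.

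The genes whose counts ran most alike over the 1179 thinned Myl7-high cells of day 11 were listed where Pearson's r of log counts was at least 0.20, among 7424 genes. These are descriptions of cells that share 1 library. For *Irx4* they were *Myl2* (0.36), *Pln* (0.32), *Hopx* (0.24), *Crip2* and *Cited1* (0.21 each), and over the 422 cells of day 6 *Myl2* had 0.25, *Pln* 0.07 and *Hopx* 0.28. For *Hey2* they were *Myl2* (0.28), *Myh7* and *Myl3* (0.26 each), and *Myl2* had 0.02 with *Hey2* at day 6. The ventricular light chain thus led both lists at day 11. At day 6 *Hey2* was found in 8 of the 422 thinned cells, too few to read a difference between days from its 0.02.

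*Nr2f1* ran most alike with *Shox2* (0.32), *Fbxo32* (0.31), *Gucy1a1* and *Maged2* (0.30 each) and *Tpm2* (0.26), and *Nr2f2* with *Shox2* (0.29), *Acta2* (0.27), *Gucy1a1* (0.24), *Igfbp5* and *Maged2* (0.23 each). At day 6 *Shox2* had 0.42 with *Nr2f1* and 0.48 with *Nr2f2*, while *Acta2* had -0.30 with *Nr2f2*. For *Nppa* the list was *Mest* (0.36), *Smpx* and *Casq1* (0.29 each), *Pam* and *Platr26* (0.27 each). At day 6, with *Nppa* in 6 of the 422 thinned cells, these genes had 0.01, 0.05, -0.05, -0.003 and -0.02. *Pam* encodes a peptide-amidating enzyme that is abundant in atrial secretory granules. *Nppb*, found in only 14 of the 1179 thinned cells, had *Nppa* (0.30), *Ankrd1* (0.27) and *Cystm1* (0.20), values that rest on these few cells. *Hey1* had no gene at 0.20 or above.

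Outside the Myl7-high cells the peptide genes and *Irx4* had few UMIs, and the other factors were spread over many types. Of the 143 *Irx4* UMIs of other cells at day 6, 109 were in cells with under 1 *Myl7* UMI per 10000, as were 27 of 63 at day 11. At day 11, 72 cells of cardiomyocyte-like clusters fell under the *Myl7* limit, and they held 48.9% of the *Nppa* UMIs, 49.2% of the *Irx4* UMIs and 15.5% of the *Hey2* UMIs of all other cells. The *Nppa* share was 45 UMIs, of which 43 were in a single cell. *Hey2* was at 75.3 CPM (61.0 to 92.0) in them, above its 12.9 CPM in Myl7-high cells, with *Irx4* at 24.3 CPM and *Myl2* at 5434 CPM. The *Myl7* limit thus left out some *Myl2*-rich cells with the highest *Hey2* level of any class. A further 38.1% of the *Irx4* UMIs of other cells were in neural ectoderm-like cells, 23 of 24 in a single cluster led by *Cartpt*, *Sst* and *Lhx1* where *Irx4* was at 13.0 CPM.

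The COUP-TF genes had their own order among the named classes outside the heart muscle. *Nr2f2* was highest in mesenchyme-like cells at day 11 (242 CPM, 236 to 248), then in neural crest-like (191.0 CPM, 163 to 222), endothelium-like (125.0 CPM, 118 to 132), endoderm-like (94.1 CPM, 77.8 to 113), neural ectoderm-like (61.2 CPM) and skeletal myoblast-like cells (42.8 CPM), with 4.34 CPM in the 36 haematopoietic-like cells. Intervals of neighbours in this order did not overlap. Its highest level in a cluster, 473 CPM, was in one led by *Foxf1*. *Nr2f1* was highest in neural crest-like (250.5 CPM, 218 to 286) and neural ectoderm-like cells (170.3 CPM, 164 to 177), then mesenchyme-like cells (116 CPM), with 22.9 CPM in endothelium-like, 11.4 CPM in skeletal myoblast-like, 5.68 CPM in endoderm-like and 5.21 CPM in haematopoietic-like cells, the last 3 of which had overlapping intervals. Against these types, the 209 CPM of *Nr2f1* in Myl7-high cells lay between neural crest-like and neural ectoderm-like cells, and the 118.5 CPM of *Nr2f2* overlapped with endothelium-like cells.

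Among these classes *Hey1* was highest in skeletal myoblast-like (40.1 CPM, 35.3 to 45.3) and endothelium-like cells (35.2 CPM, 31.4 to 39.2), whose intervals overlapped, above the 13.7 CPM of Myl7-high cells. It had 0 UMIs in haematopoietic-like cells, which allows up to 3.20 CPM. *Hey2* was at 28.6 CPM (18.5 to 42.2) in 46 neural crest-like cells, 5.89 CPM in mesenchyme-like, 2.16 CPM in endothelium-like and 0.709 CPM in neural ectoderm-like cells, while 51.1% of its UMIs in other cells were in clusters without a name. In other cells of day 11 *Hey1* and *Hey2* were found together in 28 cells against 18.5 (1.51, 1.01 to 2.19).

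At day 6 the clusters without a name held 88.8% of the *Irx4* UMIs of other cells and between 58.95% (*Hey1*) and 72.8% (*Nr2f1*) of those of the 4 other factors. *Nr2f1* reached 358 CPM and *Hey1* 87.3 CPM over all cells of the *Sfrp5*-led cluster without a name, in which *Nr2f2* was at 295 CPM and *Nppa* at 0.567 CPM. *Hey1* was at 57.4 CPM in endothelium-like cells, 34.3 CPM in somitic mesoderm-like and 11.8 CPM in neural ectoderm-like cells. *Nr2f1* was at 123 CPM in neural ectoderm-like, 18.4 CPM in endothelium-like and 3.97 CPM in streak and tailbud-like cells, and *Nr2f2* at 197, 122 and 14.7 CPM in mesenchyme-like, endothelium-like and streak and tailbud-like cells. Among named classes, *Hey2* was highest in somitic mesoderm-like cells, at 9.45 CPM (8.01 to 11.1). Mesenchyme-like cells had the highest *Nr2f2* level among named classes at both days, although at day 6 its interval overlapped with that of 21 cardiomyocyte-like cells under the *Myl7* limit (179.9 CPM, 143.7 to 222.5).

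The 7 genes stand in wider programmes, which were counted by gene list. Of 10 ventricular genes with enough UMIs, 9 were higher and 0 lower in Myl2-high cells of day 11, with a median ratio of 6.63 against 0.947 over all genes compared, of which 1.06% were higher and 3.03% lower (*Myl2* itself, which made the split, is among them). *Irx5* and *Irx3*, relatives of *Irx4* in the Iroquois family, were 14.8 and 9.87 times higher there, although they were lower in Myl7-high than in other cells (ratios 0.173 and 0.234). Of 8 sinus venosus and pacemaker genes 0 were higher and 5 lower in Myl2-high cells (*Hcn4*, the pacemaker channel, at 0.349), and of 9 atrial genes 0 were higher and 2 lower, among them *Sln*, which encodes the atrial calcium pump regulator sarcolipin, at 0.235. *Nr2f1* and *Nr2f2* were thus on the side of the sinus and part of the atrial list.

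Of 7 genes of chamber and trabecular muscle, 4 were higher and 3 lower in Myl7-high than in other cells of day 6 (median ratio 2.10, against 0.906 over all genes, of which 7.68% were higher and 15.5% lower). At day 11, 4 of 6 were higher and 1 lower (median 9.004, against 0.778 over all genes, of which 10.8% were higher and 25.9% lower). Of 10 atrial genes, 9 were higher in Myl7-high than in other cells of day 11 and 0 lower, with *Myl4*, the atrial essential light chain, 65.7 times and *Kcnj3*, a subunit of the acetylcholine-gated potassium channel, 40.0 times higher. From day 6 to day 11, 5 of 10 atrial genes were higher in Myl7-high cells and 1 lower, with a median ratio of 6.67 against 0.938 over all genes, of which 9.93% were higher and 8.37% lower, beside the ratio of 50.4 for *Nppa*. In the same comparison 3 of 10 ventricular genes were higher and 4 lower (median 1.32), and 2 of 8 sinus venosus and pacemaker genes were higher and 2 lower. Of 8 cardiac transcription factors 0 were higher and 4 lower at day 11 (*Gata4* at 0.497 and *Hand2* at 0.427), while *Nkx2-5* had a ratio of 1.55.

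Most listed genes of the Notch and retinoic acid pathways were lower in cardiomyocytes of day 11, where 10.8% of all genes were higher and 25.9% lower. Of 14 Notch pathway genes, 1 was higher and 12 lower in Myl7-high cells of day 11, the exception being the ligand *Jag2*, at 11.2 against 2.51 CPM, while the receptor *Notch1* had a ratio of 0.0638. Of 11 retinoic acid genes 0 were higher and 10 lower, with the synthesis enzyme *Aldh1a2* at 0.0526 and the receptor *Rara*, the one not called, at 0.733. Of 8 natriuretic peptide genes 2 were higher and 4 lower. The 2 were the proteases *Corin*, which cleaves pro-ANP (14.3 against 3.93 CPM), and *Furin* (2.41 times), and the peptide receptors *Npr1* and *Npr3* were at 0.0880 and 0.0628 of the level in other cells. The median over all genes in this comparison was 0.778. At day 6, where 7.68% of all genes were higher and 15.5% lower, the same lists gave 2 higher and 10 lower of 14 Notch genes, 0 and 9 of 12 retinoic acid genes, and 3 and 3 of 8 natriuretic peptide genes, the first 2 lists again mostly on the side of the other cells.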

How the data were processed

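Counts of UMIs per gene and cell were deposited by the authors as 1 matrix per day, made from 10x 3′ libraries with Cell Ranger 3.1.0 on mm10 per the submitters' processing notes. The header of the day 11 matrix gives 6.0.1, and the strand and intron settings were not given in the sources used here. From these counts, cells with over 200 genes, under 20% mitochondrial and over 5% ribosomal UMIs were kept. A limit of 3 scaled median absolute deviations was also set on the log UMIs of a cell. The 8% with the highest simulated doublet score were then removed. These limits were rebuilt, so the kept cells need not be those of the study. Levels are summed UMIs as CPM, with exact Poisson intervals, shares have Clopper-Pearson intervals, and ratios conditional binomial intervals, all at 95%. They cover counting error only, since cells of a library are not replicates. A gene with 0 UMIs in a set was put at a floor of 3. Clusters were made with leidenalg 0.10.2 (resolution 1, 2000 variable genes, 30 principal components, 20 neighbours) and named from marker lists, and 2 clusters were left unnamed by hand because of their leading genes. Besides the 7 members, *Myl7*, *Myl2* and *Shox2*, genes were named if they had the largest or smallest fold of a list, went against it, marked a class, or were among the 5 with the highest Pearson r per member at 0.2 or above. The members and lists were chosen with earlier results of these data known. The scripts were tested on simulated data. Alternatives changed the quality limits, doublet removal, the *Myl7* and *Myl2* limits, the gate, the total, the thinning depth and the clustering resolution. Leaving out day 11 cluster 19, a cluster of low depth, was added after seeing the data.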

Additional observations from a re-analysis of the deposited data

How the results depend on the processing

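No paired analysis was possible because the labels give 1 library per day. No ratio and no level of a member reversed: of 191 ratios recomputed, 127 moved by less than their counting interval and 64 by more. Of 730 single-member values recomputed, 484 were counted as the same and 246 as moved. The 2 members higher in Myl7-high cells of day 6 became 1, with *Nr2f1* lost, under each of 5 settings (more than 200 genes as the only limit, doublets left in, a *Myl7* limit of 60, cardiomyocyte-like clusters in place of the limit, and a mean over cells). At day 11 the 3 members became 2, with *Nr2f1* again lost, with doublets left in or a mean over cells, and *Hey2* took the place of *Nr2f1* with a *Myl7* limit of 15 or with clusters. The 3 members called between days and the 5 called by *Myl2* stayed the same ones in every setting run, cluster 19 of day 11 left out included. Co-detection was less firm. At day 6 the 3 pairs called became 1 when at least 2 UMIs were required, where 1 pair in place of 5 reached the minimum. The 2 pairs found together more often at day 6 became 0 without thinning and 1 with thinning to 10000, more than 200 genes as the only limit, doublets left in or a *Myl7* limit of 15, and thinning to 3000 gave 3 more and 0 less often. At day 11 the 7 became 4 with thinning to 3000 UMIs, 1 with at least 2 UMIs and 2 with a *Myl7* limit of 60, where 9, 3 and 13 pairs in place of 16 reached the minimum. With all 16 compared, 1 more and 4 less often were left with more than 200 genes as the only limit, and 1 and 5 with doublets left in. Without thinning, 4 were more and 2 less often. The pair *Irx4* and *Hey2* was not called with thinning to 3000 or a limit of 60. Beyond the pairs that missed the minimum, the cause was not tested. *Nppb*, and *Nppa* at day 6, had too few UMIs for a call.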
